A study of Caenorhabditis elegans with 6 samples.

Results

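The genes described here are 10 genes that make and desaturate fatty acids in the nematode Caenorhabditis elegans: sbp-1, pod-2, fasn-1 and the desaturase genes fat-1 to fat-7. They were picked by symbol as genes of this pathway, by a rule that uses no measured value but with earlier results of these arrays known, and each of the 10 had exactly 1 probe set whose platform annotation gave that symbol alone, out of 25478 genes with such a probe set. Expression was measured on 6 Affymetrix arrays of total RNA from whole hermaphrodites of strain N2, the wild type. Synchronised animals were grown for 48 hours at 20 °C from the first larval stage (L1) to the fourth (L4) on E. coli OP50, either on plain nematode growth medium (control, n = 3 arrays) or with sodium perchlorate at 1 mg/mL in both agar and bacteria (perchlorate, n = 3 arrays). No transgene or mutation was part of either group. The growth notes of the control samples also mention perchlorate, whereas their titles, descriptions and treatment entries call them controls, and the titles were followed. Nothing in the labels says whether replicates were separate cultures, so the p-values reflect only how far these arrays spread, and that spread may be technical.

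In animals, fatty acids are built in the cytosol. ATP citrate lyase supplies acetyl-CoA, acetyl-CoA carboxylase (POD-2 in the worm) turns it into malonyl-CoA, and fatty acid synthase (FASN-1) joins these units into palmitate. SBP-1 is the worm homologue of SREBP, a membrane-bound transcription factor that, once cleaved, turns on lipogenic genes. Palmitate and stearate then receive their first double bond from the stearoyl-CoA desaturase family: FAT-5 acts mainly on palmitate, and the close paralogues FAT-6 and FAT-7 on stearate, yielding oleate. Unlike mammals, C. elegans makes polyunsaturated fatty acids from scratch: FAT-2 converts oleate to linoleate, FAT-1 is an omega-3 desaturase, and FAT-3 and FAT-4 complete the chain that ends in arachidonic and eicosapentaenoic acid. The intestine and the epidermis are the main sites of this synthesis. In the RefSeq annotation of assembly WBcel235, sbp-1 lies on chromosome III, pod-2 on II, fasn-1 on I, and fat-5 and fat-7 on V. The remaining members lie on chromosome IV, where fat-3 and fat-4 are adjacent genes and fat-1 and fat-2 are separated by 1 annotated gene.

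The values are log2 probe set values normalised by RMA, so that a difference of 1 is a doubling. The median value of an array lay between 5.81 and 5.89, and perchlorate replicate 1 stood apart on the first principal component, where it scored 47.7, the remaining perchlorate arrays 12.2 and 13.1, and every control below 0. Of the markers of intestine (13 measured), epidermis (9), germline (10), body wall muscle (8) and neurons (8), none was below the lower quartile on all 6 arrays. That quartile is not a limit of detection. In RNA from whole animals, fewer cells of a type and less RNA per cell cannot be told apart.

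No member passed the test across all genes. With limma, 0 of the 10 genes had a Benjamini-Hochberg adjusted p under 0.05, as against 2 of 26192 probe sets tested (0.00764%). In simulated data this test called 1.49% of true log2 differences of 0.5, so 0 calls say little about differences of that size. Taken at a limma p under 0.05 without adjustment, 2 members were lower with perchlorate, fasn-1 and sbp-1, and 0 higher, where 7.92% of all probe sets were lower and 8.46% higher by that rule. In the same 2 genes the 3 perchlorate values lay wholly below the 3 control values, which 11.2% of all probe sets also showed, while 0 members lay wholly above (12.8%). All 10 members were brighter than the median probe set, and among probe sets that bright the shares were larger: 11.5% lower and 10.1% higher by the unadjusted p, and 17% wholly below, with 48.4% of them below 0. Counts of 2 in 10 are therefore near the background, and nothing is read from them about the members. The median log2 difference of the 10 genes was -0.02 beside 0.03 over all probe sets, with 7 members below 0 and 3 above, and it was 0.0053 when quantile normalisation was applied again.

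**Figure D1:**
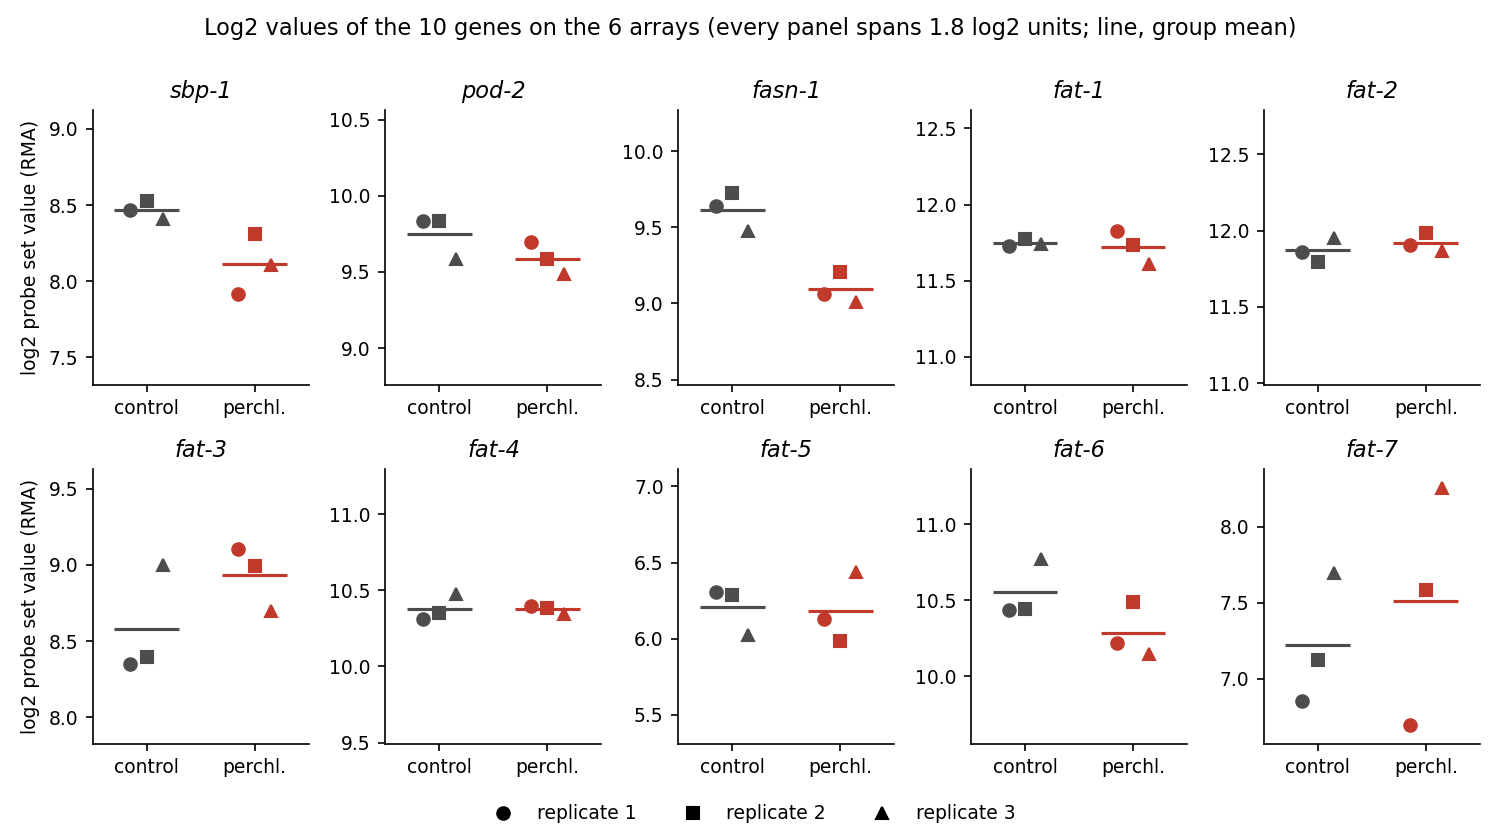
Log2 probe set values of the 10 genes on the 3 control (grey) and 3 perchlorate (red) arrays; symbols mark replicate numbers, lines are group means, and every panel spans the same range of log2 units. The groups separate for sbp-1 and fasn-1 and overlap for the other 8 genes.

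Among the enzymes of saturated fatty acid synthesis, the largest difference of any member was in fasn-1, the fatty acid synthase gene. The control arrays gave log2 levels of 9.64, 9.72 and 9.48, and the perchlorate arrays 9.06, 9.21 and 9.01. All 3 perchlorate values were thus below the lowest control, and both groups were about equally tight. Mean log2 levels were 9.61 ± 0.126 for control and 9.09 ± 0.102 for perchlorate (SD, n = 3 arrays per group). They differed by -0.52 (SE 0.120, limma adjusted p = 0.151), so that perchlorate stood at 69.7% of the control level with a 95% interval from 57.3 to 84.9%. Dropping single arrays gave differences from -0.59 to -0.46 and limma adjusted p from 0.185 to 0.417. With a trended and robust variance prior fasn-1 passed (limma adjusted p = 0.0459), in a setting that called 0.859% of all probe sets lower, and it was the only member that passed under any of the alternatives run.

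The gene upstream of it in the pathway, pod-2, which encodes acetyl-CoA carboxylase, showed a smaller difference. It was at 9.83, 9.84 and 9.58 in controls and 9.69, 9.58 and 9.48 with perchlorate. The groups overlapped, because control replicate 3 was as low as perchlorate replicate 2. On the log2 scale pod-2 differed by -0.16 (SE 0.125, limma adjusted p = 0.553), or 89.2% of the control level with an interval from 72.8 to 109%. Without control replicate 3 it was -0.25.

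For sbp-1, the SREBP homologue, control values were 8.47, 8.53 and 8.41 and perchlorate values 7.92, 8.31 and 8.11. The controls were close together, and the perchlorate arrays were spread over 0.394 log2 units below them, with replicate 1 the lowest. Perchlorate minus control was -0.36 on the log2 scale (SE 0.133, limma adjusted p = 0.255), which is 78.0% of the control level with an interval from 62.9 to 96.9%. Without perchlorate replicate 1 it was -0.26, and without perchlorate replicate 2 it was -0.46.

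**Figure D2:**
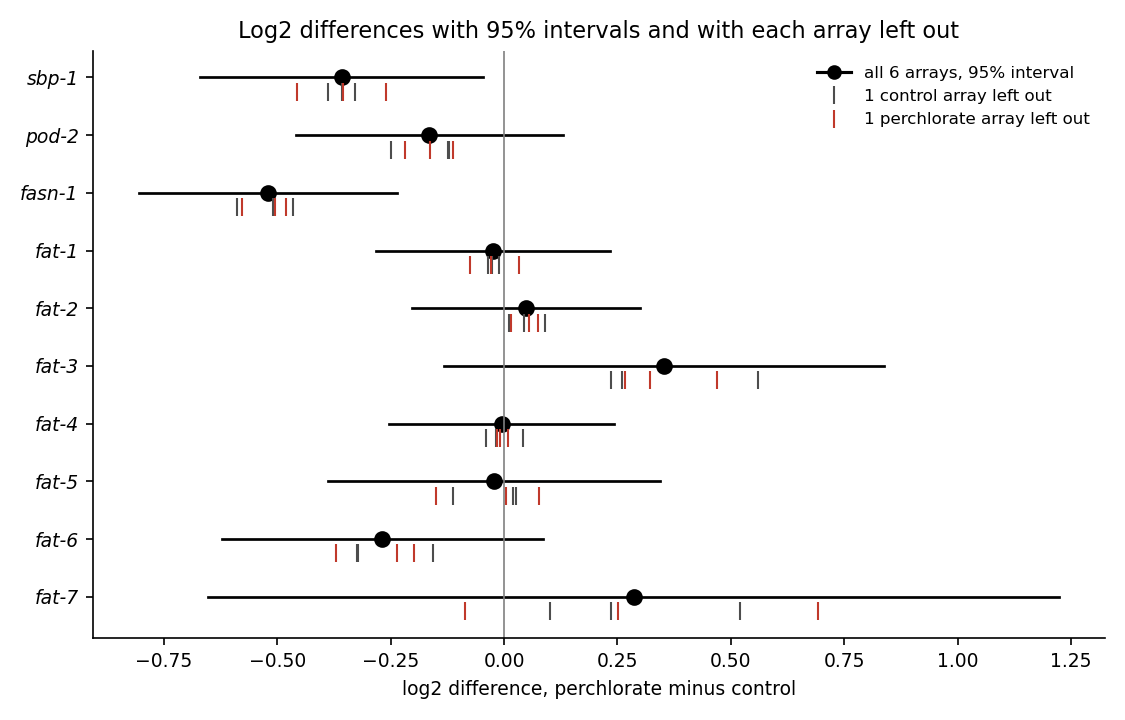
Log2 difference of each gene, perchlorate minus control (circle), with its 95% interval from the limma fit (line); ticks beneath give the difference with 1 control array (grey) or 1 perchlorate array (red) left out. The intervals of fasn-1 and sbp-1 lie below 0 before adjustment, and the ticks of fat-7 run from -0.09 to 0.69.

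Of the desaturases that place the first double bond, fat-6 lay lower with perchlorate in the mean and fat-7 higher, and neither passed. The level of fat-6 was 10.44, 10.44 and 10.77 in controls and 10.22, 10.49 and 10.14 with perchlorate. Perchlorate replicate 2 fell within the control range, and the control mean was drawn up by replicate 3. Its log2 difference was -0.27 (SE 0.150, limma adjusted p = 0.419), or 83.0% of the control level with an interval from 65.0 to 106%, and it was -0.16 without control replicate 3.

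The paralogue fat-7 was the most variable member. Its control values were 6.86, 7.12 and 7.69, and its perchlorate values were 6.70, 7.58 and 8.26, so that both the lowest and the highest of the 6 values came from perchlorate arrays. Its within-group SD of 0.630 log2 units was larger than that of 99.1% of the 13096 probe sets brighter than the median. The log2 difference of 0.29 (SE 0.398, limma adjusted p = 0.759) had an interval from -0.65 to 1.22, and leaving out perchlorate replicate 3 gave -0.09. These arrays therefore do not settle a direction for fat-7. FAT-6 and FAT-7 are close paralogues, and how far the probes of each also bind the transcript of the other was not tested.

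The palmitate desaturase gene fat-5 was at 6.30, 6.29 and 6.03 in controls and at 6.13, 5.99 and 6.44 with perchlorate. The groups overlapped throughout. Its log2 difference was -0.02 (SE 0.155, limma adjusted p = 0.956), with an interval from -0.39 to 0.34, and its sign depended on which array was left out.

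The genes of polyunsaturated fatty acid synthesis included the steadiest members. For fat-2, the gene that opens this branch, the 3 controls read 11.86, 11.80 and 11.95 and the 3 perchlorate arrays 11.90, 11.98 and 11.87. The omega-3 desaturase gene fat-1 read 11.72, 11.78 and 11.74 in controls and 11.83, 11.73 and 11.61 with perchlorate. The last step on the list, fat-4, read 10.31, 10.35 and 10.47 in controls and 10.40, 10.38 and 10.35 with perchlorate. In each of these 3 genes the groups overlapped, and the pooled within-group SD was 0.0790 log2 units or less.

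Their log2 differences were 0.05 for fat-2 (SE 0.107), -0.02 for fat-1 (SE 0.109) and -0.005 for fat-4 (SE 0.105), with limma adjusted p between 0.855 and 0.986. The 95% intervals ran from 0.868 to 1.23 times the control level for fat-2, from 0.823 to 1.18 times for fat-1 and from 0.839 to 1.18 times for fat-4. Differences larger than these bounds lie outside the intervals, and smaller ones were not resolved with 3 arrays per group. The bounds are not the limit of what the adjusted test detects, which in simulated data called 1.49% of true log2 differences of 0.5. The signs of fat-1 and fat-4 turned to positive under repeated quantile normalisation.

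In contrast to its neighbour fat-4, fat-3 varied between arrays. Its level was 8.35, 8.40 and 8.997 in controls and 9.10, 8.995 and 8.70 with perchlorate. Control replicates 1 and 2 lay below all perchlorate arrays, but control replicate 3 was level with perchlorate replicate 2. Its group means differed by 0.35 (SE 0.206, limma adjusted p = 0.438), or 1.28 times the control level with an interval from 0.912 to 1.79. Without control replicate 3 it was 0.56 (limma adjusted p = 0.232), which is over 1.5 times as large.

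Whether related members differed by unequal amounts was tested within arrays for 4 pairs, chosen after the values were seen, with a two-sided exact permutation test that cannot give a p under 0.1 for 3 against 3 arrays. For pod-2 minus fasn-1, successive enzymes, the log2 difference within an array was 0.20, 0.11 and 0.11 in controls and 0.63, 0.38 and 0.47 with perchlorate. The groups did not overlap, and the contrast widened by 0.36 (exact permutation p = 0.1, the smallest possible, adjusted p = 0.4 over the 4 pairs). For the neighbours fat-3 and fat-4 it shifted by 0.36 (exact permutation p = 0.2), for fat-1 and fat-2 by -0.07 (exact permutation p = 0.5) and for fat-6 and fat-7 by -0.55 (exact permutation p = 0.4). With this number of arrays no pair could have passed, so these values describe the arrays and settle nothing about unequal change.

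Over the 6 arrays, the members that varied most alike were sbp-1 and fasn-1, with a Pearson correlation of 0.908, followed by fat-2 and fat-3 at 0.805 and pod-2 and fasn-1 at 0.764. The lowest values were -0.835 for fat-1 and fat-7 and -0.830 for pod-2 and fat-7. The 6 points share the split into groups as well as RNA and array quality. The genes most like fasn-1 over these arrays, out of 12636 genes brighter than the median, were unc-18, which encodes a syntaxin-binding protein, ucr-2.2, which encodes a subunit of the cytochrome bc1 complex, and the protein-coding gene W06H8.6, with correlations of 0.998, 0.995 and 0.994. As many as 706 genes correlated with fasn-1 above 0.9, and log2 differences of the first 3 were -0.33, -0.28 and -0.86.

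Around the core enzymes, 7 lists of related lipid genes held 99 genes, of which 97 were measured. With limma 0 of the 97 passed adjusted, and at an unadjusted p under 0.05 there were 14 lower and 5 higher, beside the 7.92% and 8.46% of all probe sets given above. Among bright probe sets these shares were 11.5% and 10.1%. The groups lay apart for 32 genes downward, 33.0% of the 97, where 11.2% of all and 17% of bright probe sets did, and for 10 upward, where 12.8% and 16.6% did. Of the 97, 63 (64.9%) lay below 0 beside 44.8% of all and 48.4% of bright probe sets, and the median log2 difference of the 97 was -0.08. The lists were chosen with earlier results of these arrays known, so their shares are not independent evidence of a fall in lipid genes.

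**Figure D3:**
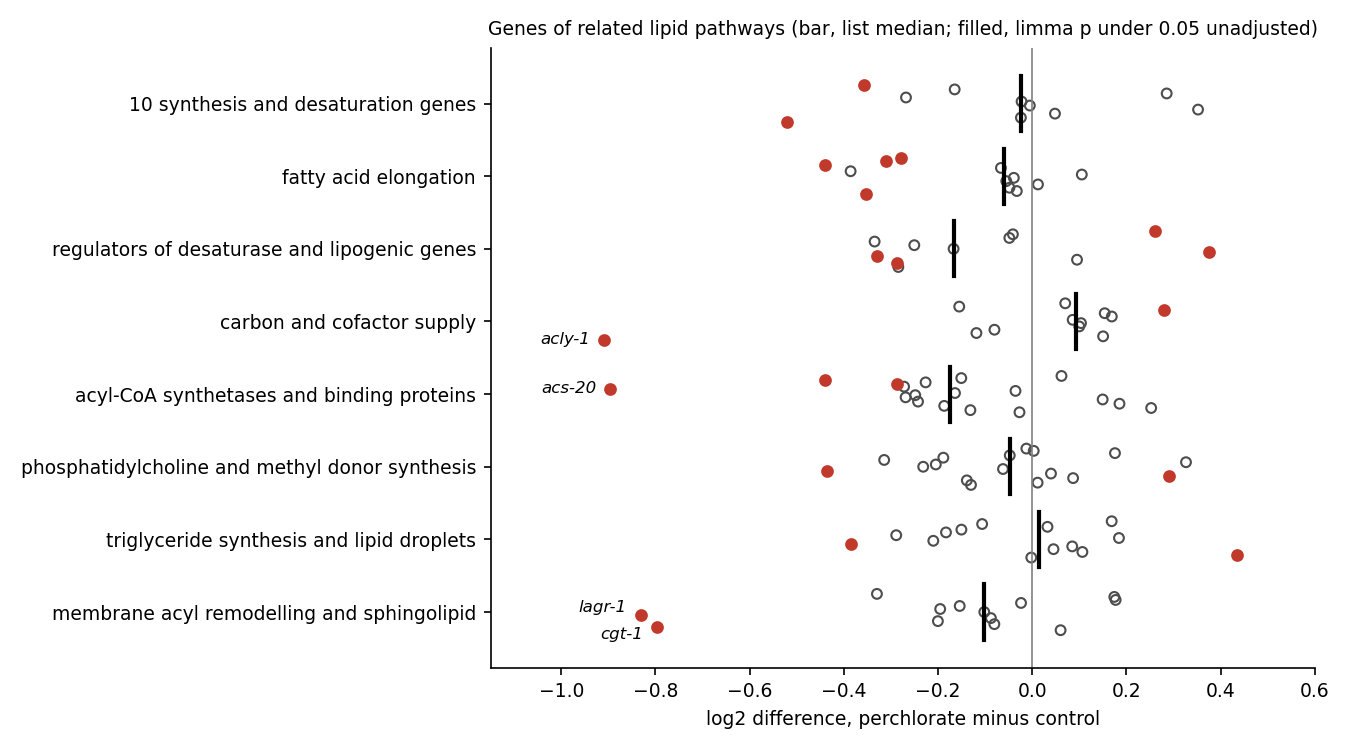
Log2 difference, perchlorate minus control, of each measured gene in the 10-gene set and in 7 lists of related lipid genes; bars are list medians and filled circles have an unadjusted limma p under 0.05. The list medians lie between -0.18 and 0.09, and acly-1, acs-20, lagr-1 and cgt-1 lie farthest below 0.

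The supply of carbon to fasn-1 is represented by acly-1 and acly-2, which encode ATP citrate lyase. For acly-1 the control values were 8.38, 8.18 and 8.10 and the perchlorate values 7.53, 7.32 and 7.08. All perchlorate values lay well below the controls. They differed by -0.91 on the log2 scale (SE 0.152, limma adjusted p = 0.123), while acly-2 differed by 0.15 (SE 0.119, limma adjusted p = 0.571). Without perchlorate replicate 3 acly-2 was at 0.24. The carbon and cofactor list as a whole had a median of 0.09 over 12 genes (0.05 without control replicate 2), with 8 above 0 and 4 below. Of all probe sets 44.8% lay below 0, and 7.92% were lower and 8.46% higher by unadjusted p. Among bright probe sets these shares were 48.4%, 11.5% and 10.1%. By unadjusted p, 1 was lower (acly-1) and 1 higher, the methylmalonyl-CoA epimerase gene mce-1 at 0.28, and idh-1, for a cytosolic isocitrate dehydrogenase, differed by 0.15.

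Elongation extends the products of fatty acid synthase. Of 12 genes in this list 10 lay below 0, beside 44.8% of all and 48.4% of bright probe sets. The median log2 difference of the list was -0.06 (from -0.17 without perchlorate replicate 2 to -0.03 without control replicate 3). By unadjusted p 4 of its genes were lower and 0 higher, where 7.92% and 8.46% of all and 11.5% and 10.1% of bright probe sets were. The enoyl-CoA reductase gene art-1 differed by -0.35, the elongase gene elo-9 by -0.44 and the ketoacyl-CoA reductase gene let-767 by -0.28, with limma adjusted p between 0.189 and 0.263; the fourth was hpo-8 (-0.31), a dehydratase gene of the same cycle. The elongase genes elo-1 and elo-2, which act on polyunsaturated and saturated chains, differed by -0.03 and -0.05, and with 1 array left out by -0.09 to 0.02 and by -0.11 to -0.01.

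Of 11 measured regulators of these genes, 8 lay below 0 and 3 above, where 44.8% of all and 48.4% of bright probe sets lay below 0. The regulators had a median log2 difference of -0.17, with 2 lower and 2 higher by unadjusted p. By that rule 7.92% of all probe sets were lower and 8.46% higher, and 11.5% and 10.1% of bright ones. The Mediator subunit gene mdt-15, a coactivator of SBP-1 and of nuclear receptors, was at 9.98, 9.95 and 9.87 in controls and 9.51, 9.68 and 9.62 with perchlorate, and differed by -0.33 (SE 0.108, limma adjusted p = 0.215). The gene scp-1, the homologue of SCAP, which escorts SREBP to its cleavage, was at 8.11, 8.09 and 8.15 and at 8.36, 8.33 and 8.44, and differed by 0.26 (SE 0.101, limma adjusted p = 0.270). Groups did not overlap in either gene, downward for mdt-15 and upward for scp-1. The FOXO gene daf-16 differed by -0.29, and the nuclear receptor genes nhr-49 and nhr-80, known to control desaturase genes, by -0.17 and -0.33. The value of nhr-80 was -0.53 without perchlorate replicate 1 and -0.17 without replicate 2. A further nuclear receptor gene, nhr-13, was the other one higher by unadjusted p (0.38).

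For the lists of users of new fatty acids, the background by unadjusted p was 7.92% lower and 8.46% higher over all probe sets. Among bright probe sets that background was 11.5% and 10.1%. Acyl-CoA synthetases and binding proteins had a median of -0.18 over 18 genes, with 3 lower and 0 higher by unadjusted p. These were acs-20 (-0.90, SE 0.208), needed for the cuticle barrier, acs-5 (-0.44, SE 0.109) and acs-3 (-0.29, SE 0.119), at limma adjusted p of 0.151, 0.155 and 0.294. Membrane remodelling and sphingolipid genes had a median of -0.10 over 13 genes, with 2 lower and 0 higher, the ceramide glucosyltransferase gene cgt-1 (-0.80, SE 0.147) and the ceramide synthase gene lagr-1 (-0.83, SE 0.270). The dihydroceramide desaturase gene ttm-5 differed by -0.33. Without perchlorate replicate 1, lagr-1 was at -0.51 and ttm-5 at -0.15. Phosphatidylcholine and methyl donor genes had a median of -0.05 over 17 genes (-0.08 without perchlorate replicate 2, -0.02 without perchlorate replicate 1), with ckb-2 lower (-0.44) and cka-2 higher (0.29), both choline kinase genes, and the methyltransferase gene pmt-1 at -0.31. Triglyceride and lipid droplet genes had a median of 0.02 over 14 genes (-0.02 to 0.03 with 1 array left out), with the acyltransferase gene acl-2 higher (0.44), the lipase gene atgl-1 lower (-0.38) and the droplet protein gene dhs-3 at -0.29, or -0.17 without perchlorate replicate 1.

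Markers of the moult, the epidermis, the intestine, body wall muscle and neurons had lower medians on the perchlorate arrays, as had fasn-1 and sbp-1, although none passed adjusted over all probe sets. On the perchlorate arrays fasn-1 lay 0.55, 0.41 and 0.60 log2 units below the control mean, and sbp-1 0.55, 0.16 and 0.36 units below. The median of 17 moulting cycle genes lay at -1.64, -0.88 and -0.75 on those arrays and at -0.23 on control replicate 3. Among control arrays, replicate 3 was the lowest for that list and for fasn-1, sbp-1 and pod-2. It was also the lowest control for the medians of epidermis (-0.13), germline (-0.12) and body wall muscle (-0.08) markers. For neuron markers control replicate 1 was the lowest (-0.12), and for intestine markers control replicate 3 was the highest (0.02). Over the perchlorate arrays, pod-2 ran in the opposite order to the moulting list, at -0.06, -0.17 and -0.27. Summed on the linear scale, the moulting list ran from 5371 to 6834 in controls and from 1957 to 3849 with perchlorate, and by unadjusted p 13 of the 17 were lower and 0 higher. For this and the next lists, the background by that rule was 7.92% lower and 8.46% higher over all probe sets. Among bright probe sets it was 11.5% and 10.1%.

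The summed epidermis markers ran from 7110 to 8181 in controls and from 3808 to 5291 with perchlorate, with 4 of 9 lower and 1 higher by unadjusted p, and a median log2 difference of -0.43 (-0.73 without perchlorate replicate 3). The gene dpy-7 is in both this list and the moulting list, so the lists are not separate. In this list elt-3, elt-1 and lin-26 differed by -0.09, -0.22 and -0.34. Without perchlorate replicate 3, elt-3 was at -0.03 and lin-26 at -0.22. Intestine markers ran from 19619 to 20248 and from 17196 to 18771, with 3 of 13 lower and 0 higher, and a median log2 difference of -0.22. Body wall muscle markers ran from 23169 to 24332 and from 18602 to 21554, with 4 of 8 lower, 0 higher and a median of -0.27. Neuron markers ran from 4602 to 4927 and from 4038 to 4348, with 2 of 8 lower, 0 higher and a median of -0.22. The intestine median was also -0.22. Germline markers overlapped, from 10286 to 11483 and from 9974 to 11376, with 0 of 10 either way. The part of the moult and of these tissues in the differences of fasn-1 and sbp-1 was not tested. Perchlorate replicate 1 was the lowest array for the moulting list and for sbp-1, whereas for fasn-1 and pod-2 it was perchlorate replicate 3.

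**Figure D4:**
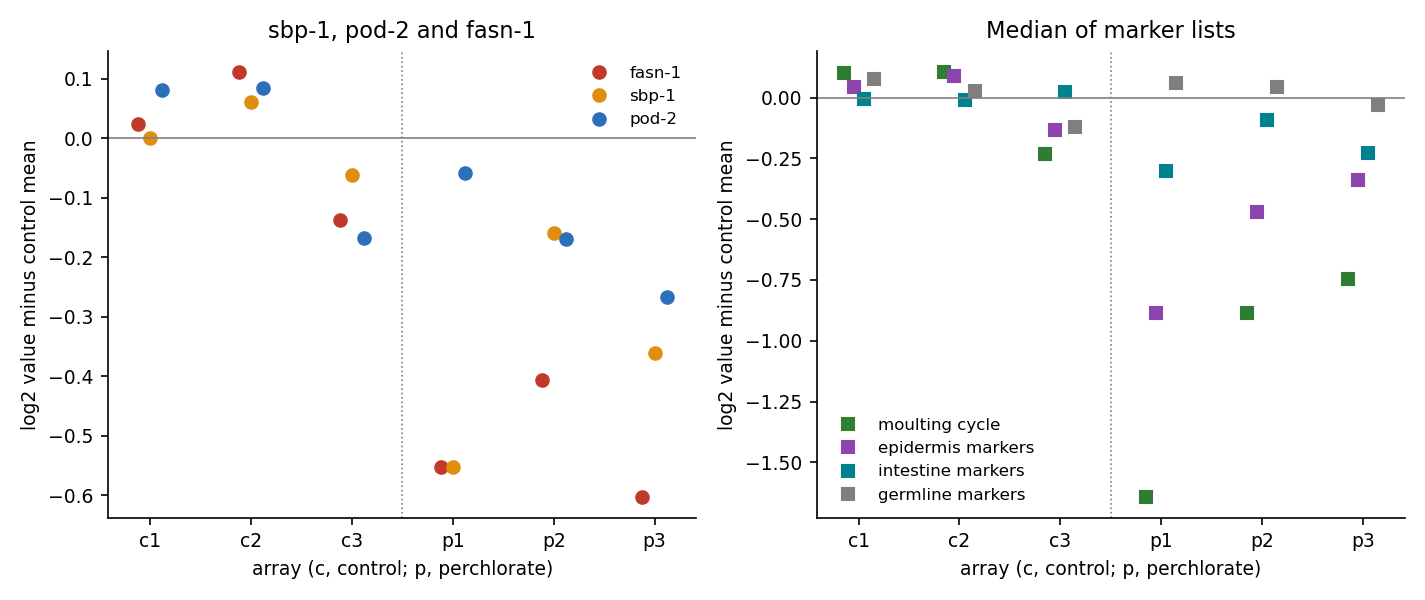
Left, log2 values of fasn-1, sbp-1 and pod-2 on each array minus the gene's control mean; right, the median of the same quantity over the genes of 4 marker lists, on a wider axis. Perchlorate arrays lie between -0.60 and -0.41 for fasn-1 and between -1.64 and -0.75 for the moulting cycle list.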

How the data were processed

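Per the submitters' processing notes, the authors made the deposited log2 probe set values with RMA in Affymetrix Expression Console, which corrects background, normalises quantiles and summarises probes; no version or genome build is given in the sources used here, and coordinates are left out. The values were analysed as deposited. Of 29317 rows, 26192 had a gene in the platform annotation and were tested, and 25546 had 1 symbol. A gene was read from its brightest row with 1 symbol.

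Groups were compared with limma 3.58.1 in R 4.3.3 (lmFit, eBayes, two-sided, Benjamini-Hochberg over all rows tested, threshold 0.05), with 4 residual and 3.12 prior degrees of freedom, and the procedure was tested on simulated data. There 1.49% of true log2 differences of 0.5 were called, 68.7% of 1 and 98.5% of 2, with 10 false calls. Simulated noise was normal and independent for each probe set, sized by the moderated variances, so structure shared within arrays was left out. On the real arrays mlt-11 (-1.84), dpy-5 (-1.59) and sqt-3 (-1.48) did not pass, so the simulated rates may be too high for these data. Intervals are 95% intervals of the moderated fit. Precision is limited by the number of arrays, with a median SE of 0.153. Members and lists were chosen with earlier results of these data known. In each list the 3 genes with the smallest p were named, and other list genes were chosen after their values were seen. The genes lpd-1, acl-10, bus-8, nhr-73 and vit-3 had no row of their own. Same-numbered arrays did not deviate together (correlations of 0.028, -0.018 and -0.0061). For the lists, left-out arrays and repeated quantile normalisation were added after the data were seen. Alternatives covered the replicate block, left-out arrays, normalisation, filters on dim rows, rows tested, the prior, weights and limma treat against 1.2-fold.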

Additional observations from a re-analysis of the deposited data

How the results depend on the processing

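The 0 members called stayed at 0 under all alternatives except the trended and robust prior, which called 1 (fasn-1). Over all rows, 2 probe sets were called; the count was 0 with the replicate block, with 1 row per gene and with the mean of all rows of a gene, 0 on leaving out any 1 array, 1 with quantile normalisation applied again, with arrays centred on their medians, with all rows including those without a gene and with treat, 97 among rows above the median brightness and 328 with the trended and robust prior. Member differences gave 170 values over the alternatives, of which 158 kept their sign and side of the threshold, 11 turned in sign and 1 was newly called. The replicate block, filters, choice or averaging of rows, prior and treat left each member's difference unchanged, so no sign could turn there. The median of the 10 genes lay between -0.10 and -0.014 with 1 array left out (-0.07 without control replicate 3, -0.10 without perchlorate replicate 3) and at 0.0053 with repeated quantile normalisation. Sign turned in fat-1 (0.033 without perchlorate replicate 3, range -0.076 to 0.033 with 1 array left out, 0.019 with repeated quantile normalisation), in fat-4 (0.042 without control replicate 3, 0.0088 without perchlorate replicate 3, range -0.039 to 0.042, 0.026 with repeated quantile normalisation, 0.012 with array weights), in fat-5 (0.026, 0.019, 0.0046 and 0.077 without control replicates 1 and 2 and perchlorate replicates 1 and 2, range -0.15 to 0.077) and in fat-7 (-0.087 without perchlorate replicate 3, range -0.087 to 0.69); the cause was not tested. The replicate block, where numbers are shared only as numbers, left 0 members called, and the SE of fat-7 was 0.183 with it. The member median of -0.02 could not move under the block. With 3 arrays per group, differences inside the 95% intervals given for each gene were not resolved.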

Other observations

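The markers of body wall muscle that were lower at an unadjusted limma p under 0.05 were the myosin genes myo-3 (-0.55) and unc-54 (-0.32), the twitchin gene unc-22 (-0.50) and the paramyosin gene unc-15 (-0.33). Among neuron markers these were the proprotein convertase gene egl-3 (-0.47) and the vesicle priming gene unc-13 (-0.54), while unc-10 differed by -0.26. Vitellogenin genes, which encode the yolk proteins that carry lipid from the intestine to the oocytes of adults, had a median log2 difference of 0.30 over 5 genes, or 0.16 without perchlorate replicate 1, with vit-1 (0.56) and vit-5 (0.33) higher by unadjusted p, vit-4 at 0.30 (0.16 without perchlorate replicate 1), and vit-2 and vit-6 at -0.01 and -0.03 (-0.04 to 0.02, and below 0 down to -0.09, with 1 array left out). None of these genes passed adjusted over all rows (smallest limma adjusted p = 0.151 in the muscle list). The summed vitellogenin level ran from 20174 to 21315 in controls and from 21509 to 25315 with perchlorate.

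Leading genes of the marker lists set beside fasn-1 were lin-42 (-1.24), mlt-11 (-1.84) and fbn-1 (-0.73) for the moult, the collagen genes sqt-3 (-1.48), dpy-5 (-1.59) and rol-6 (-1.04), with che-14 (-0.60) lower and grd-10 (0.37) higher, for the epidermis, ges-1 (-0.40), elt-7 (-0.39) and pgp-1 (-0.63) for the intestine, and him-3 (0.22), mex-3 (-0.23) and gld-1 (-0.14) for the germline. Without perchlorate replicate 3, mex-3 was at -0.09 and gld-1 at -0.07, and gld-1 was at -0.09 without control replicate 2.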
